A study of Mus musculus with 4 samples.

Results

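The histone deacetylases, acetyltransferases and demethylases add or remove acetyl groups on histones and other proteins, or take methyl groups off histones. They make up 44 of the 23451 genes with a value in dendritic cells grown from mouse bone marrow. The genes were taken by symbol: 11 histone deacetylases (Hdac), 7 sirtuins (Sirt), 8 lysine acetyltransferases with a Kat symbol, the acetyltransferases Ep300 and Crebbp, and 16 lysine demethylases (Kdm, with Kdm3a left out). Each of 4 groups gave RNA for 1 Agilent array read in the Cy3 channel: cells given LPS with LA, LPS, LA, or medium without stimulation. LPS was given at 100 ng/ml and LA, written L-(+)-LA in the labels and related to the lactate of the series title, at 20 mM, both for 4 h, and no time was given for medium. All cells were wild type, from femur marrow of male C57BL/6J mice, and had been cultured until day 6 with GM-CSF at 10 ng/ml in MEM that held 10% FBS. GM-CSF is the growth factor that drives marrow precursors towards dendritic cells. No label says whether the marrow of several mice was pooled.

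Acetyl groups on histone tails loosen chromatin and are read by bromodomain proteins. They are placed by acetyltransferases, which use acetyl-CoA, and removed either by the zinc-dependent deacetylases or by the sirtuins, which use NAD. Methyl groups on histone lysines are removed by the flavin-dependent KDM1 enzymes and by the JmjC enzymes of the KDM2 to KDM7 families, which need oxygen and 2-oxoglutarate. In myeloid cells these enzymes are known to shape how strongly inflammatory genes respond to LPS, and the JmjC demethylase gene Kdm6b is known as an LPS-induced gene in macrophages.

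With 1 array per group there was no replicate, so each difference is between 2 arrays and carries no p-value. Levels are the background-subtracted signal divided by the array's own 75th percentile, as log2. A comparison took in the genes whose brightest probe exceeded background clearly, by the scanner software's flag, on both of its arrays. Levels of different probes cannot be set against each other. Among the probes printed 10 times per array and well above background, the median SD between spots lay between 0.0502 and 0.0527 log2 units on the 4 arrays. It was 0.0929 to 0.115 for levels from -2 to 0 and 0.205 to 0.304 for levels below -2, from 3 to 9 probes per range and array. This error leaves out culture, animal and labelling. The share of non-control spots well above background was 63.6% with LPS and LA, 56.5% with LPS, 64.1% with LA and 61.5% in medium. The 8 dendritic cell markers, among them Itgax and Zbtb46, were well above background on every array. The macrophage markers (7 or 8 of 8), neutrophil markers (8 of 8) and mast cell, basophil and eosinophil markers (7 or 8 of 8) were so too, and of the lymphocyte and stromal markers 3 to 4 of 6 and 3 to 4 of 5 were.

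Of the 44 genes, 37 were well above background on all 4 arrays. Another 4 were so on some arrays, and 3 (Hdac11, Kdm4d and Sirt5) on no array. Hdac10, Kat2a and Sirt3 were dim on the LPS array only, and Kdm6b on the array with LPS and LA only. The array holds 1 probe for 17 of the genes, 2 for 20, 3 for 6 and 5 for Hdac9.

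The first question was which of these genes differ after LPS, a bacterial trigger of inflammation, from medium. Kdm4a, a demethylase of histone H3 lysines, was 3.13-fold higher with LPS, and Hdac1, a class I deacetylase that works in the Sin3, NuRD and CoREST corepressor complexes, 3.06-fold higher. Hdac8, another class I deacetylase, was 2.95-fold lower, Sirt7, a nucleolar sirtuin, 2.22-fold lower and Hdac5, a class IIa deacetylase that shuttles between nucleus and cytoplasm, 2.16-fold lower. Thus 5 of 38 measured genes were at least 2-fold apart, against 15.6% of all 13592 genes measured. By direction 2 were higher, where 8.14% of all genes were, and 3 lower, where 7.5% were. At 13.2% the share of the enzymes was near that of all genes. The split of 2 higher and 3 lower became 2 and 4 when the arrays were scaled over commonly bright probes (those above background on all 4), and 2 and 5 in the authors' deposited values, where the median of all genes was -0.17 and -0.24. In RNA of whole cultures, fewer cells of a type and less RNA per cell cannot be told apart.

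Kdm4a stood at 2.81 with LPS and LA, 4.87 with LPS, 2.93 with LA and 3.22 in medium. The LPS array was thus the high one, apart from the other 3. The second Kdm4a probe lay at -1.07 with LPS and -2.88 in medium and was not well above background on either array with LA.

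Hdac1 stood at 1.48 with LPS and LA, 3.48 with LPS, 1.31 with LA and 1.87 in medium, so it too was high on the LPS array alone. Its second probe read 0.88, 2.27, 0.86 and 0.84 in the same order, and both probes were more than 2-fold higher with LPS than in medium.

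Hdac8 was instead low on the LPS array alone. Its levels were 0.53 with LPS and LA, -1.07 with LPS, 0.36 with LA and 0.49 in medium. Its second probe was dim on the LPS array only and lay at -3.34, -3.11 and -3.01 with LPS and LA, with LA and in medium.

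Sirt7 lay at 2.71 with LPS and LA, 0.95 with LPS, 2.75 with LA and 2.11 in medium. Its second probe was also lowest on the LPS array, with 0.12, -0.55, 0.11 and 0.23, and the mean of both probes differed by -0.97 log2 units between LPS and medium. Hdac5 has 1 probe, which lay at 0.44, -0.47, 0.32 and 0.64. With normexp background correction, which shrinks differences of dim probes, its LPS difference was -0.86.

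**Figure D1:**
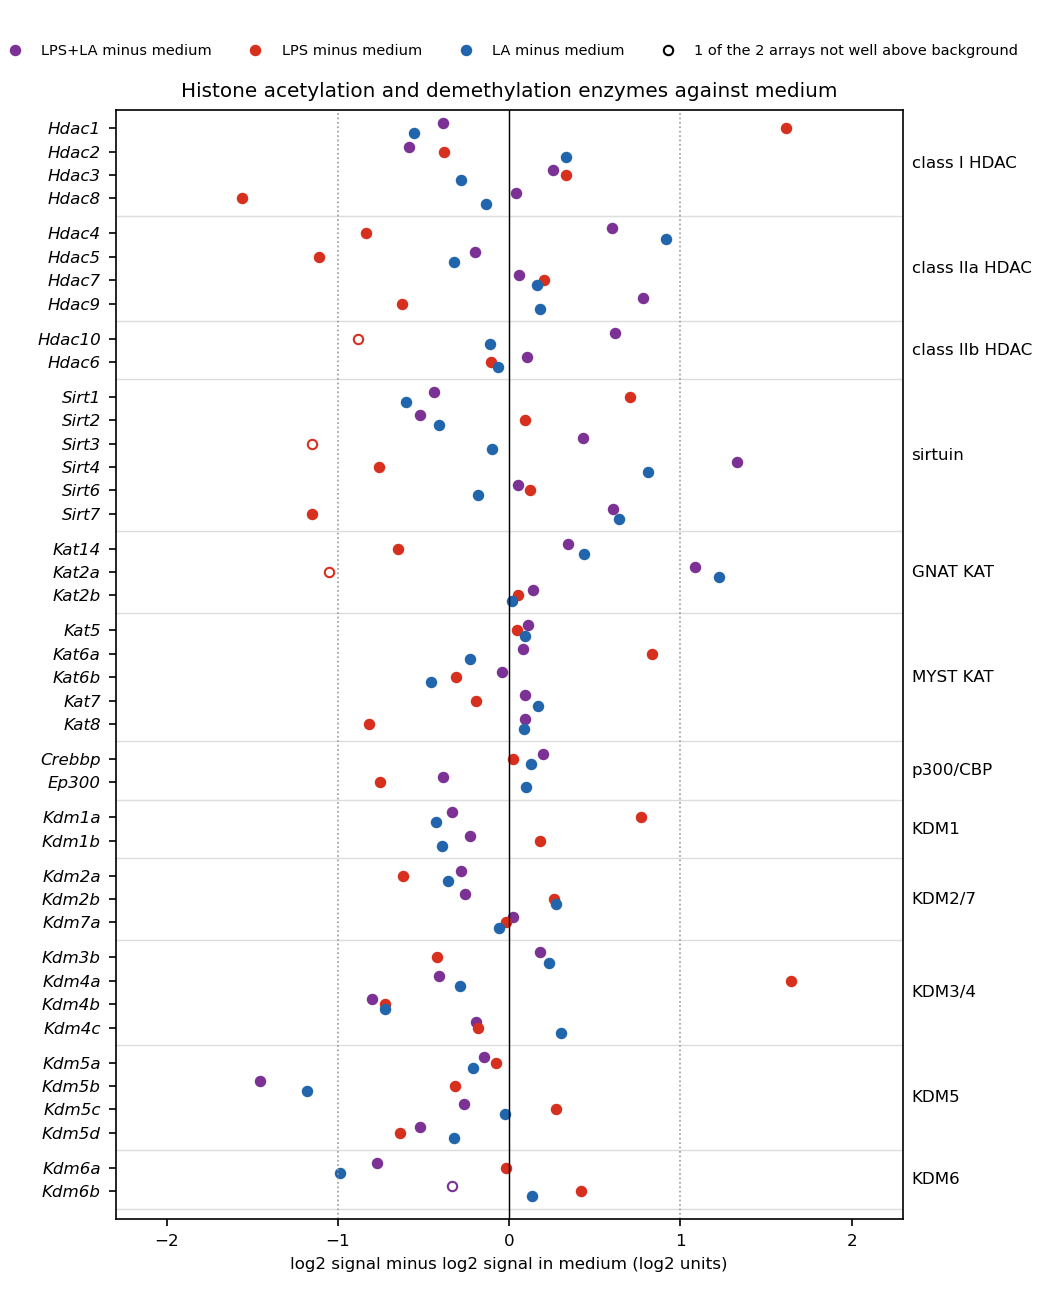
Log2 signal on the arrays with LPS and LA (purple), LPS (red) and LA (blue) minus that in medium for the 41 genes well above background on at least 1 array, ordered by enzyme class. Open circles mark a difference in which 1 of the 2 arrays was not well above background, and dotted lines mark 2-fold. The red points of Kdm4a and Hdac1 lie right of the 2-fold line at 1.65 and 1.61, and Kdm5b is left of it only in the groups with LA.

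Promoters of 3 genes at the ends of these differences are shown, and that of Hdac9 for its motif, with the letters of 3 motifs looked for in them. RefSeq windows of GRCm38.p6, from 250 bases before to 50 after the gene start, were found for 35 of the 44 genes (49 windows). The motifs searched on both strands were the HIF core ACGTG, the NF-kB motif (GGG, any 2 bases, TTTCC) and the CREB motif TGACGTCA, with no match overlapping another in the windows printed, and matches are in capitals. The windows are those of Kdm4a, highest with LPS (chr4:118179994-118180293, minus strand), of Hdac8, lowest with LPS (chrX:102505109-102505408, minus strand), of the upstream Hdac9 start, printed because it held a match (chr12:34917046-34917345, minus strand), and of Kdm5b, lowest with LA (chr1:134559928-134560227, plus strand).
Kdm4a: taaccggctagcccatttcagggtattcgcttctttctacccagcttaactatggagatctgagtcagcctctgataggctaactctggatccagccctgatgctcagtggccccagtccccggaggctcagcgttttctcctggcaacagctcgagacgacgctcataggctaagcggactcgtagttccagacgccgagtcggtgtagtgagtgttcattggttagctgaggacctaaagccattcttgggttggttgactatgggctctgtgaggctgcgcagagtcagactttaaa
Hdac8: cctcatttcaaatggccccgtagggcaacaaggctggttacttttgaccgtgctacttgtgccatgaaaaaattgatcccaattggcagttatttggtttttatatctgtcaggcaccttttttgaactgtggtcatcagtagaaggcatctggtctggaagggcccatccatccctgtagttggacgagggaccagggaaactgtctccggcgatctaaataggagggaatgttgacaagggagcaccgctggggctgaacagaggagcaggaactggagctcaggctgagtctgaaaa
Hdac9: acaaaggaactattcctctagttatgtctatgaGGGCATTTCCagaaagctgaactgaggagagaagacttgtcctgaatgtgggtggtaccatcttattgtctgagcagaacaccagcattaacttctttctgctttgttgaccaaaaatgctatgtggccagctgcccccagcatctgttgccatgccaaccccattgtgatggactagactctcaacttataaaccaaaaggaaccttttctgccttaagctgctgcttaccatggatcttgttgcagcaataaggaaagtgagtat
Kdm5b: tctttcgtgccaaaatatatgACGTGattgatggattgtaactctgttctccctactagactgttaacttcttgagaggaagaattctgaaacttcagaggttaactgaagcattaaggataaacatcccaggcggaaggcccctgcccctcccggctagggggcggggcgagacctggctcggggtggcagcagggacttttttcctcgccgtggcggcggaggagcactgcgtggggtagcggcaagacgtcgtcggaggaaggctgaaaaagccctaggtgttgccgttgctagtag

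The Kdm4a and Hdac8 windows held none of the 3 motifs, and neither did the downstream Hdac9 window (chr12:34528840-34529139, minus strand), which is not printed. The upstream Hdac9 window was the only one among the enzymes with the NF-kB motif, at -217 from the start, and Kdm5b held ACGTG at -229. ACGTG was in 13 of the 49 windows (26.5%) against 19.6% of 32851 windows of all genes, the NF-kB motif in 2.04% against 1.63%, and TGACGTCA in 0 of 49 against 1.79%. The median GC content of the windows was 61% for the enzymes and 52.7% for all genes, and its part in these shares was not tested. These are letter matches and no measured binding.

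The other classical deacetylases measured differed by less than 2-fold between LPS and medium. In class IIa, Hdac4 was 1.79-fold and Hdac9 1.54-fold lower with LPS, and the median of the 4 genes of this class was -0.73 log2 units. In class I, Hdac2 lay at -1.97, -1.76, -1.05 and -1.38 with LPS and LA, LPS, LA and in medium. The brightest probe of Hdac3, a class I deacetylase, was 1.26-fold higher with LPS, while its second probe differed by -0.43 log2 units, so the probes disagreed. Hdac7, also of class IIa, read 7.55, 7.70, 7.66 and 7.50 and Hdac6, a cytoplasmic tubulin deacetylase, 1.35, 1.13, 1.18 and 1.24, and both were nearly level. Of 9 classical deacetylases measured in this comparison, 1 was at least 2-fold higher and 2 lower, where 8.14% and 7.5% of all genes were. Their median log2 difference was -0.38, where that of all genes was 0.00.

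Of the sirtuins, Sirt7 alone was at least 2-fold apart among the 5 measured with LPS and in medium, where 15.6% of all genes were. Sirt1, a nuclear sirtuin that deacetylates NF-kB and p53, lay at -0.69, 0.45, -0.85 and -0.25 in the order LPS with LA, LPS, LA and medium, 1.63-fold higher with LPS. Its second probe differed by 0.25. Sirt2, the cytoplasmic sirtuin, read 2.68, 3.30, 2.80 and 3.21, and Sirt6, a chromatin-bound sirtuin, was 1.09-fold higher with LPS. Sirt3, the main mitochondrial deacetylase, was dim with LPS, which leaves it at least 1.97-fold lower there.

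Acetyltransferases showed no difference of 2-fold between LPS and medium among 9 measured (median -0.20), against 15.6% of all genes. Kat6a, of the MYST family, was 1.78-fold higher with LPS, but its second probe was 0.47 log2 units higher. Kat8, which acetylates histone H4, was 1.77-fold lower and Ep300, encoding p300, 1.69-fold lower. Crebbp, encoding the p300 relative CBP, read 7.16 with LPS and LA, 6.99 with LPS, 7.09 with LA and 6.96 in medium, and Kat5 2.32, 2.26, 2.31 and 2.22, so these genes were level on all 4 arrays. Kat2b, which encodes PCAF, read -1.71, -1.80, -1.83 and -1.85.

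Among 15 demethylases measured with LPS and in medium, Kdm4a alone was at least 2-fold apart (median -0.02), again against 15.6% of all genes. Kdm1a, the flavin-dependent demethylase of the CoREST complex, lay at 0.32 with LPS and LA, 1.42 with LPS, 0.23 with LA and 0.65 in medium, 1.70-fold higher with LPS. Kdm4b, known as a HIF-1 target, lay at -0.18, -0.10, -0.10 and 0.62, so medium was the high array and each treated array about equally lower. The Kdm6b probe, which reads the gene known for LPS induction, lay at -3.11 with LPS and -3.52 in medium (1.33-fold). It was well above background on both arrays, but in the range where the median SD between spots was 0.205 or more. The brightest probes of Kdm7a and Kdm5a differed by -0.02 and -0.08 log2 units between LPS and medium. Their second probes differed by 0.47 and -0.24, so the Kdm7a probes disagreed.

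The remaining demethylases stayed under 2-fold in all 4 comparisons. Kdm5c, the X-linked relative of Kdm5b, lay at 0.40 with LPS and LA, 0.94 with LPS, 0.65 with LA and 0.67 in medium. Kdm5d, its Y-linked copy, lay at -0.97, -1.09, -0.77 and -0.45 in the same order, so the pair differed in which array was highest, LPS for Kdm5c and medium for Kdm5d. The second Kdm5c probe was also highest with LPS, though by little (-0.70 with LPS and -0.72 with LA). Of the further Kdm5d probes 1 was highest in medium (-0.65) and 1, dim with LPS, with LPS and LA (-3.41). Kdm4c, like Kdm4b known as a HIF-1 target, lay at -1.41, -1.40, -0.91 and -1.22, with LA as its highest array. Its second probe read -3.23, -2.58, -3.12 and -2.42, with medium as the highest, and the probes gave LA differences from medium of opposite sign (0.30 and -0.69). Kdm3b, a relative of the Kdm3a demethylase, lay at -1.62, -2.23, -1.57 and -1.80 and was lowest with LPS. Kdm1b, the other flavin-dependent demethylase, lay at -0.57, -0.16, -0.73 and -0.34 on its brightest probe, highest with LPS. Its second probe was dim with LPS and lay at -3.07 with LPS and LA, -2.34 with LA and -2.74 in medium, so the probes disagreed. All 3 Kdm2a probes were lower with LPS than in medium (-0.62, -0.52 and -0.43 log2 units), while the 3 Kdm2b probes disagreed (0.26, -0.26 and -0.23). Both genes encode JmjC demethylases that also bind unmethylated CpG islands. The MYST acetyltransferase genes Kat7 and Kat6b lay at -0.54 with LPS and LA, -0.83 with LPS, -0.47 with LA and -0.64 in medium for Kat7 and at -1.98, -2.25, -2.39 and -1.93 in that order for Kat6b, and 2 further Kat6b probes were dim on the LPS array only.

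LA was set against medium to describe the LA difference without LPS. Kdm5b, a demethylase of methylated H3 lysine 4, was 2.27-fold lower with LA, and Kat2a, the GCN5 acetyltransferase of the SAGA complex, 2.34-fold higher. These were 2 of 41 measured genes (4.88%) against 6.44% of all 14554 genes, with 1 higher (3.12% of all genes) and 1 lower (3.33%). The count of the enzymes was again near that of all genes.

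Kdm5b lay at -1.47 with LPS and LA, -0.32 with LPS, -1.19 with LA and -0.01 in medium. Both arrays with LA were below both arrays without it, and the LA difference was -1.18 (-0.77 with normexp). Kdm6a, the X-linked demethylase of methylated H3 lysine 27, was also lower on both arrays with LA, at -2.56, -1.81, -2.78 and -1.79 in the same order of arrays, and 1.98-fold lower with LA than in medium. Each of them has 1 probe.

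Kat2a lay at -1.80 with LPS and LA, -1.66 with LA and -2.89 in medium, and was dim with LPS. Its second probe lay at -2.89, -3.11, -2.53 and -2.77 in the order LPS with LA, LPS, LA and medium, so it did not show the 2-fold difference. The mean of both probes was 0.73 log2 units higher with LA, and 0.48 was found with normexp.

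Other values of LA against medium were smaller. Hdac4, a class IIa deacetylase, was 1.89-fold higher with LA and its second measured probe 0.53 log2 units higher, while Hdac1 was 1.47-fold lower and its second probe differed by 0.02. Sirt7 was 1.56-fold higher with a second probe at -0.13, and Sirt1 1.52-fold lower with a second probe at 0.13. Of 15 demethylases, 11 had a value below 0 (median -0.29, against 0.02 for all genes), and of 10 acetyltransferases 8 had one above 0 (median 0.09). In the authors' deposited values the all-gene median was 0.17. Scaling moves the enzymes along with all genes, so these counts of signs depend on the scaling.

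LPS with LA was set against LPS alone to describe the LA difference in stimulated cells. Hdac1 was 4.01-fold and Kdm4a 4.16-fold lower with LA, and Sirt1, Kdm5b and Kdm1a were 2.21-fold, 2.21-fold and 2.15-fold lower. Sirt4, a mitochondrial sirtuin, was 4.26-fold, Sirt7 3.39-fold, Hdac8 3.03-fold, Hdac4 2.70-fold and Hdac9, a class IIa deacetylase, 2.65-fold higher. These were 10 of 37 measured genes, against 24% of all 13631 genes, with 5 higher (11.5% of all genes) and 5 lower (12.5%). This comparison and LPS against medium share the LPS array, so a value high on that array alone gives opposite signs in both.

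Kdm4a, Hdac1, Hdac8, Sirt7 and Sirt4 kept their direction and 2-fold size under each of the 8 other settings of scaling, background, probe or filter. The second probes of Hdac1 (-1.39), Sirt7 (0.68) and Hdac4 (dim with LPS, -1.33 with LPS and LA) had the same sign as the first. Kdm1a was -0.68, Kdm5b -0.72 and Sirt1 -0.72 in the authors' deposited values, and Sirt1's second probe was at -0.42. With normexp Hdac4 was 0.61 and Hdac9 0.74. The split of 5 higher and 5 lower became 8 and 2 with scaling over commonly bright probes, and 9 and 2 in the authors' deposited values. Under those scalings the median of all genes moved to 0.27 and 0.43, and the enzymes' median lay 0.041 and 0.042 above it, against 0.041 in the scaling used here.

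Hdac4 stood at -1.03 with LPS and LA, -2.47 with LPS, -0.72 with LA and -1.63 in medium. Its level was thus lowest on the LPS array and higher on both arrays with LA. Hdac9 stood at -0.76, -2.17, -1.36 and -1.54 in the same order. The other 4 Hdac9 probes were dim on the LPS array and in medium, and each was well above background on at most 2 arrays.

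Sirt4 gave no single picture. Its brightest probe lay at 0.23 with LPS and LA, -1.86 with LPS, -0.29 with LA and -1.11 in medium. Another read -1.40, -2.90, -1.15 and 0.27, where medium was the high array, and the last -2.07, -1.71, -1.84 and -1.80. The difference between LPS with LA and LPS alone was thus 2.09 for the brightest and -0.35 for the last probe, and 1.08 for the mean of the 3.

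Dim genes add bounds to this comparison. Sirt3 was at least 2.66-fold higher with LPS and LA than with LPS. It lay at -2.08 with LPS and LA, -3.67 with LPS, -2.62 with LA and -2.52 in medium. Hdac10, a class IIb deacetylase that acts on polyamines, was at least 2.42-fold higher and lay at -2.22, -3.72, -2.95 and -2.84 in the same order. Both were dim on the LPS array. Kdm6b, dim with LPS and LA, read 1.68-fold lower there, at -3.86 against -3.11 with LPS. Its dim reading lay above -4.06, the smallest level counted as well above background on that array. The 1.68-fold is thus the difference of 2 readings and no minimum.

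Among the rest, Kat14, of the ATAC complex, was 1.99-fold higher with LPS and LA than with LPS. Kat8 was 1.89-fold higher, Hdac5 1.88-fold higher, Kat6a 1.69-fold lower and Kdm6a 1.69-fold lower. Of 9 acetyltransferases 8 had a value above 0 (median 0.27) and 0 were 2-fold apart. Kat2a was not among the 9, since its brightest probe, at -1.80 with LPS and LA, was dim with LPS. Its second probe differed by 0.22. Of 14 demethylases 10 had a value below 0 (median -0.24), where the median of all genes was 0.00. In the authors' deposited values the all-gene median was 0.43. Scaling moves the enzymes along with all genes, so these counts of signs depend on the scaling.

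**Figure D2:**
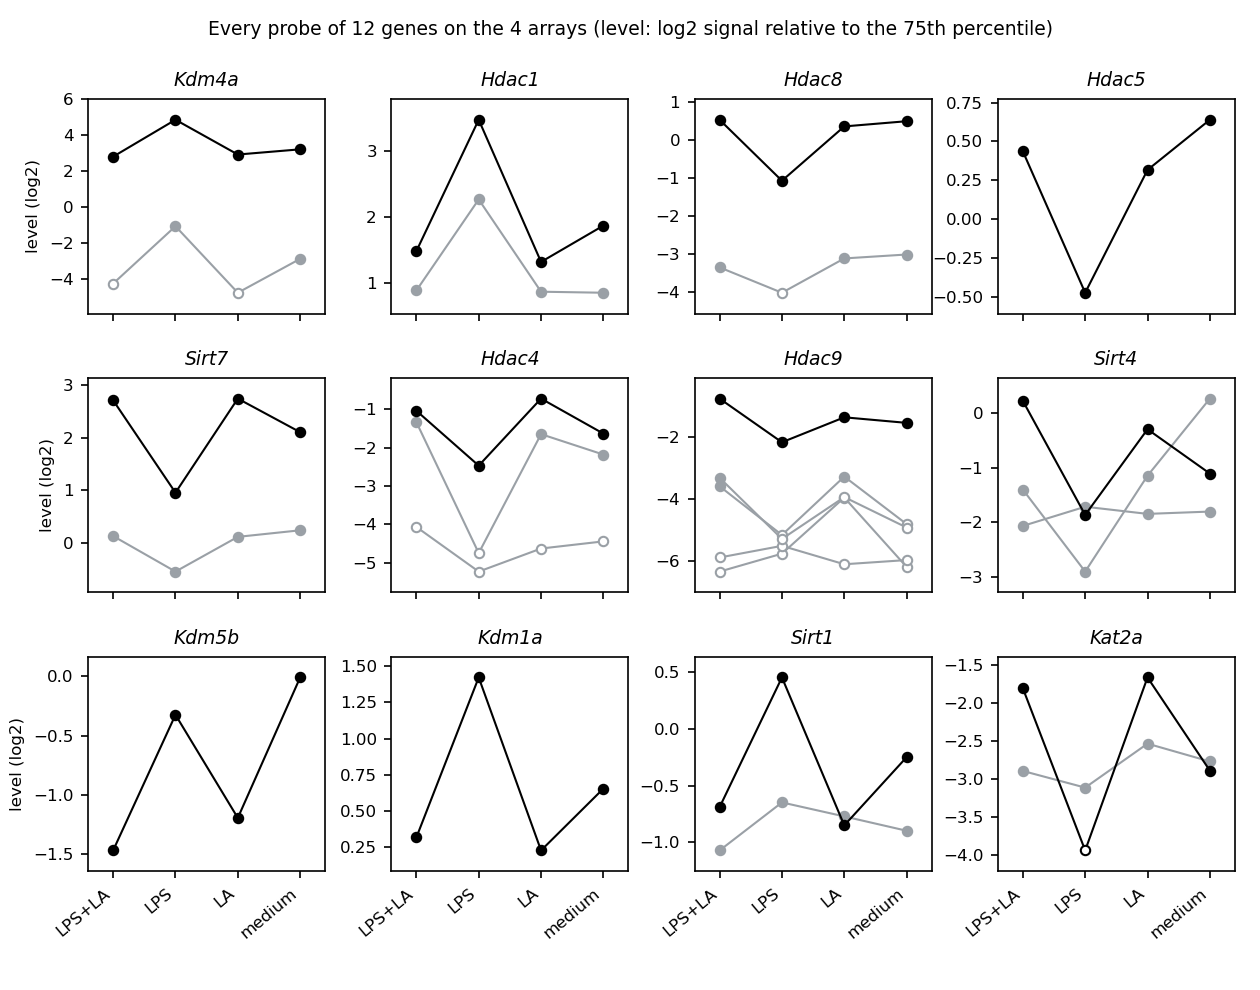
Level (log2 of the signal over the array's 75th percentile) of every probe of 12 genes on the arrays with LPS and LA, LPS, LA and medium. Black is the brightest probe, grey the others, open circles are not well above background, lines only join the values of a probe, and the vertical axes differ. Both Hdac1 probes peak with LPS (3.48 and 2.27), while the 3 Sirt4 probes disagree.

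LPS with LA was also set against LA alone, which gives the LPS difference of the enzymes when LA was present. None of 40 measured genes was at least 2-fold apart, against 2.4% of all 14903 genes, 0.906% higher and 1.5% lower. The extremes were Hdac2, 1.89-fold lower with LPS and LA, and Hdac10, 1.65-fold higher. Kdm4a differed by -0.12 and Hdac1 by 0.16 log2 units, against 1.65 and 1.61 without LA, and Hdac8 by 0.17 and Sirt7 by -0.03, against -1.56 and -1.15. Hdac2 has 1 probe.

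**Figure D3:**
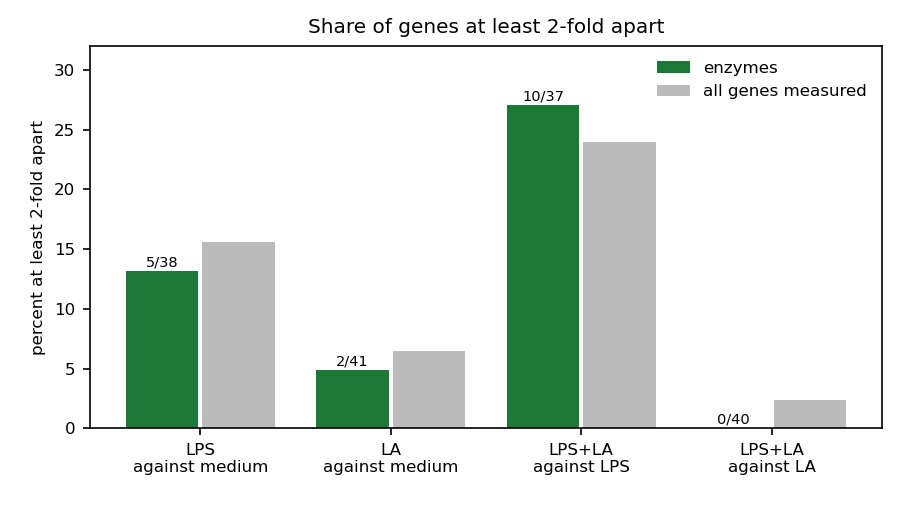
Percent of genes at least 2-fold apart in each comparison for the enzymes (green, with counts called of measured) and for all genes measured (grey). The enzymes' shares of 13.2% and 4.88% stand beside 15.6% and 6.44% for LPS and for LA against medium, and 10 of 37 and 0 of 40 beside 24% and 2.4% for LPS with LA against LPS and against LA.

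The LA difference with LPS minus that without LPS was taken for 37 genes well above background on all arrays. At least 2-fold apart were 7 of the 37 (18.9%, against 18.7% of 13368 genes). Hdac8 (1.74), Sirt4 (1.28), Hdac5 (1.23), Hdac9 (1.23) and Sirt7 (1.12) had a higher LA difference with LPS, where 8.97% of all genes did. Of these, Hdac9 turned to -0.16 with the mean of all probes and was 0.58 with normexp. Sirt4 was 0.72 and Hdac5 0.93 with normexp, and Sirt7 was 0.96 with the mean of both probes, all under 2-fold. Hdac8 stayed above 2-fold under all 8 other settings. Kdm4a (-1.77) and Hdac1 (-1.45) had a lower one, where 9.7% did. Kdm5b had nearly equal LA differences of -1.14 with LPS and -1.18 without, and their difference was 0.04.

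The LA difference with LPS and that without it share no array. Across the 37 genes 26 had the same sign in both (70.3%, against 67.3% of 13368 genes), with a Pearson correlation of 0.66 and a Spearman correlation of 0.59 across genes (0.50 and 0.47 for all genes). Genes are not independent replicates and all 4 arrays were scanned together, so these describe the arrays only. The LPS differences without and with LA had the same sign in 21 of 37 genes (56.8%, against 49.8%), with a Pearson correlation of 0.08 (0.02 for all genes).

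**Figure D4:**
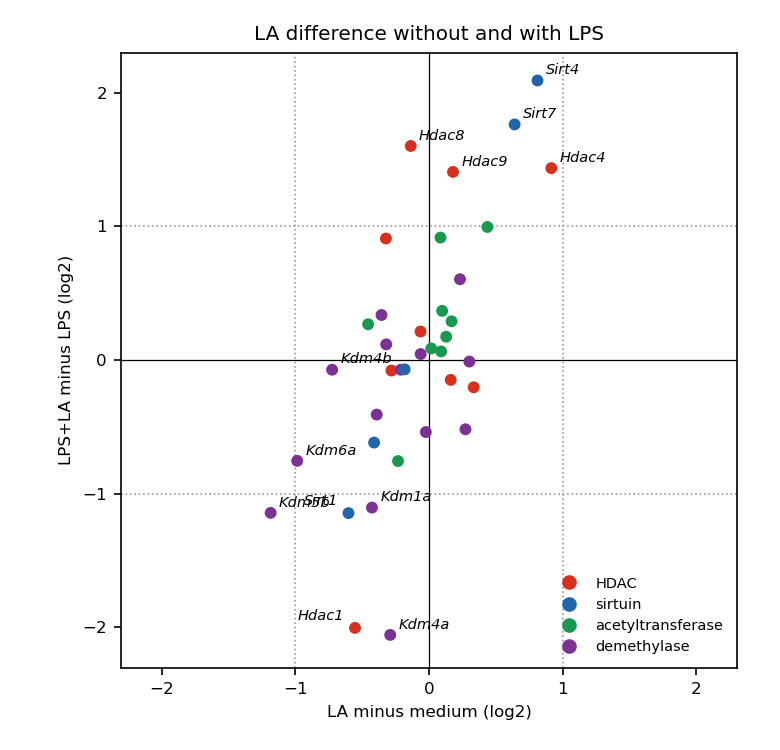
Log2 difference of LA against medium (horizontal) and of LPS with LA against LPS (vertical) for the 37 genes well above background on all arrays, coloured by enzyme type, with dotted lines at 2-fold. Kdm5b lies beyond 2-fold on both axes at -1.18 and -1.14, and Hdac1, Kdm4a, Hdac8 and Sirt4 lie beyond it on the vertical axis only.

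The partners of these enzymes were read from lists. Of 24 genes of the HDAC corepressor complexes measured with LPS and in medium, 2 exceeded 2-fold upwards and 1 downwards (median -0.10), where 8.14% and 7.5% of all genes did. Sap30, a Sin3 complex subunit, lay at 1.75 with LPS and LA, 5.17 with LPS, 1.74 with LA and 3.54 in medium. It was highest on the LPS array and lower on both arrays with LA than on both without. With LPS and LA against LPS, where 11.5% of all genes were higher and 12.5% lower, 3 of the 24 were higher and 4 lower. In the same comparison, of 21 partners of acetyltransferases 6 were higher, including Trrap (1.80) of the SAGA and TIP60 complexes, and 3 lower, including the acetyltransferase Hat1 (-1.95). Among 19 bromodomain genes 1 was higher (Bptf, at 1.89 with LPS and LA and 0.79 with LPS) and 1 lower (Atad2b, at -2.61 and -1.61). Of 14 other JmjC and 2-oxoglutarate dioxygenase genes 3 were higher, including Riox1 (2.05), and 4 lower, including Tet2 (-2.67), a DNA demethylation enzyme.

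Markers of other cells moved between the same arrays. The summed level of the 8 neutrophil markers, on the linear scale relative to the 75th percentile, was 514 with LPS and LA, 376 with LPS, 511 with LA and 345 in medium. That of the 8 mast cell, basophil and eosinophil markers was 107, 83.9, 101 and 53.8. The macrophage markers summed to 59.7, 118, 65.2 and 82.3 and the dendritic cell markers to 178, 248, 188 and 220. Each sum weighs its brightest probes most. Among the neutrophil markers S100a9 lay at 8.35, 8.19, 8.44 and 7.96, and Ly6g at -0.73, -0.70, -0.69 and -0.78. Among the dendritic cell markers Cd74 lay at 6.96, 6.94, 7.01 and 6.88. With LPS and LA against LPS, 5 of 8 neutrophil markers were at least 2-fold higher (median 1.11), against 11.5% of all genes. Ly6g, at -0.03, was the 1 of the 8 below 0. Conversely, 4 of 8 dendritic cell markers (median -0.92) and 3 of 7 macrophage markers (median -0.93) were lower, against 12.5%. Of the 8, 3 lay above 0, with Ciita (0.999) and Flt3 (0.58) the highest, and of the 7 Csf1r (0.07) alone did. Ccr7, Fcgr1 and Cd14, each among the lower ones, were 3.25-fold, 5.27-fold and 3.69-fold higher with LPS than in medium. No other marker of these 2 lists was at least 2-fold higher there. Their part in the values of the enzymes was not tested.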

How the data were processed

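The authors deposited scanner output of Agilent Feature Extraction, version 12.0.3.1 per the file headers and 11.5.1.1 per the submitters' processing notes. The intensity used, the processed signal, is linear, has the background subtracted by that software and carries no scaling across arrays, per the file headers. All 4 arrays came from 1 scan. The authors also deposited intensities of 31529 spots, each the processed signal multiplied by a constant of its array (9.30 for LPS with LA, 5.82 for LPS, 8.38 for LA, 6.67 for medium), and each of them was well above background on all arrays. Why these factors were chosen is not given in the sources used here. Depth has no meaning for arrays, and their number limits the precision.

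Levels are log2 of the processed signal minus log2 of the array's 75th percentile over 59305 spots that were not controls. Outlier spots (129 to 154 per array) were left out and spots of a probe averaged. Of 56605 probes, 33767 matched 1 symbol of a RefSeq table (GRCm38.p6) by transcript identifier, 0 several and 22838 none. The array headers name mm9, and no coordinate of theirs was used. Each gene took its brightest probe by the mean over arrays. A gene well above background on 1 array of 2 has a bound, set at the dim array by the larger of the gene's own value and the smallest signal that counted as well above background, unless another of its probes was well above background there.

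No test was possible with 1 array per group. All members may be named with their levels. Full values are given for those at least 2-fold apart or with such a bound in any comparison, those 2-fold in the difference of differences, and the brightest and dimmest of each class. From other lists the 2 highest and 2 lowest of each comparison could be named, and 1 such gene is not reported here. The members and lists were chosen with earlier results of these data known. Python 3.11.15 (numpy 2.4.6, pandas 2.3.3, matplotlib 3.10.9) and R 4.3.3 with limma 3.58.1 (quantile normalization, normexp with offset 50 on the median spot signal, since the mean is not among the columns) were used, and the steps were tested on simulated data.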

Additional observations from a re-analysis of the deposited data

Results flagged for a closer look

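Hdac9 had LPS differences of opposite sign without and with LA, both past 1.5-fold. It was -0.63 log2 units for LPS against medium and 0.60 for LPS with LA against LA. The difference between these was not tested, each value rests on 2 arrays, and no other Hdac9 probe was measured in both comparisons. Another Hdac9 probe, measured for LPS with LA against LA only, differed by -0.31 there, so the probes disagreed on that sign.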

How the results depend on the processing

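Counts of enzymes at least 2-fold apart moved by over 1.5 times as follows. For LPS against medium the count of 5 became 8 (2 higher, 6 lower) with the mean of all probes, which lets dim probes in. For LA against medium the count of 2 became 0 with normexp background correction and 1 over probes above background on all arrays. For LPS with LA against LPS 10 became 5 with normexp, and for the difference of LA differences 7 became 4. At a 1.5-fold threshold 17 of 38 enzymes passed for LPS and 8 of 41 for LA, both against medium. For the combination 17 of 37 passed against LPS and 3 of 40 against LA, and 13 of 37 for the difference of LA differences. The share of all genes was taken at 2-fold in the main setting only. The changed counts and those at 1.5-fold therefore cannot be set against all genes. The enzymes' median moved by more than the error between spots, 0.0721. With scaling over probes above background on all arrays it was -0.27 for LPS and 0.015 for LA against medium, 0.31 for the combination against LPS and 0.31 for the difference of LA differences. With the authors' deposited values it was -0.38, 0.089, 0.48 and 0.39. With quantile normalization it was -0.19 for LPS against medium and 0.19 for the difference of differences, and with median scaling -0.064 for LPS with LA against LPS. Scaling shifts all genes of an array together, and relative to the all-gene median the enzymes lay at -0.10 for LPS against medium here and at -0.14 in the authors' values. Of 24 values at least 2-fold apart, 11 stayed so under every alternative. The LA difference of Hdac9 with LPS minus that without changed sign to -0.16 with the mean of all probes, and the cause was not tested. No paired analysis was possible because each group has 1 array. Signal near background limits Hdac10, Hdac11, Kat2a, Kdm4d, Kdm6b, Sirt3 and Sirt5.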

Other observations

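Genes of histone methylation and of cofactor supply were read from lists beside the enzymes. Setdb2, a methyltransferase gene known to be interferon-inducible, lay at -1.43 with LPS and LA, 1.93 with LPS, -1.83 with LA and -0.94 in medium. Nsd3, another methyltransferase gene, lay at 2.88, 4.06, 2.86 and 2.95, and these were the 2 of 25 measured methyltransferase genes at least 2-fold higher with LPS than in medium, with 0 lower, where 8.14% of all genes were higher and 7.5% lower. With LPS and LA against LPS, 5 of 25 were higher and 2 lower, where 11.5% and 12.5% of all genes were. Their median was 0.20, where that of all genes was 0.00. The all-gene median was 0.43 in the authors' deposited values, and scaling moves these genes along with all others.

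Among 15 genes of acetyl-CoA and NAD supply, Cd38, which consumes NAD, lay at -0.07 with LPS and LA, 3.49 with LPS, -0.35 with LA and 0.46 in medium. Nampt, the rate-limiting enzyme of NAD salvage, lay at 2.48, 5.59, 2.60 and 4.02, so it was lower on both arrays with LA than on both without. Parp1, another NAD consumer, lay at -0.92, -3.06, -0.90 and -0.85 and was low on the LPS array alone.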
